A study of Mus musculus with 45 samples.

Results

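The respiratory chain of the inner mitochondrial membrane is built from subunits that are mostly encoded in the nucleus, together with a small set encoded in mitochondrial DNA. The genes described here were all nuclear protein-coding genes whose mouse symbol begins with Nduf, Uqcr, Atp5, Cox4, Cox5, Cox6, Cox7 or Cox8, together with Sdha, Sdhb, Sdhc, Sdhd and Cyc1, whose mean level over the 45 libraries was at least 1 CPM (counts scaled to a common library size). Of the 95 protein-coding rows with such a symbol, 88 reached that level, out of 54532 gene rows in all and 13601 rows at or above 1 CPM. The 88 genes comprised 37 complex I subunits and 8 complex I assembly factors (the Ndufaf genes), 4 genes of complex II, 9 of complex III, 13 of complex IV and 17 of complex V. Grouping followed the gene symbols, so Ndufa4, whose product is now placed in complex IV, was counted with complex I.

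Complexes I and II pass electrons from NADH and succinate to ubiquinone, complex III hands them to cytochrome c, and complex IV reduces oxygen. The proton gradient that complexes I, III and IV build up drives complex V, the ATP synthase, and this supplies most of the ATP that neurons spend on restoring ion gradients after firing. Complexes I, III, IV and V hold subunits from both genomes, whereas complex II is encoded in the nucleus alone.

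Poly(A) RNA was sequenced from primary hippocampal neurons of newborn (P0) C57BL/6N mice, grown in medium with 1% rat serum, given the mitotic inhibitor AraC on day in vitro (DIV) 3 and treated on DIV11 (DIV10/11 in the labels). Firing was driven with 50 µM bicuculline (Bic), a blocker of GABA type A receptors, for 0.5 h, 1 h or 2 h, and untreated cultures served as control. In the short protocol (SP), cultures had 0.5 h of Bic and then another 0.5 h in which 1 µM tetrodotoxin (TTX) was added to block action potentials, alone or along with 30 µM NMDA, the agonist used to evoke toxic signalling by NMDA receptors, including those outside synapses. The long protocol (LP) used 1 h of Bic and then 1 h in which either TTX, or TTX plus 30 µM NMDA, or 50 µM TBOA, a blocker of glutamate uptake, was present. The names used below are SP TTX, SP TTX/NMDA, LP TTX, LP TTX/NMDA and LP TBOA. Each of the 9 groups held 5 libraries, 1 from each of the culture preparations 1, 3, 6, 7 and 8, so that every group shared the same genotype, strain and preparations. The 45 libraries held between 11316580 and 81129276 counted reads, and the 88 genes took between 0.908% and 1.44% of them. The lowest count of any of the 88 genes in any library was 25 reads.

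Neuronal markers were present in all groups: Rbfox3, a nuclear protein of mature neurons, lay between 161 and 233 CPM and Snap25, a protein of synaptic vesicle fusion, between 923 and 1238 CPM. Astrocyte markers were present as well, Gfap at 154 to 665 CPM, so that the levels are those of mixed cultures. In such bulk RNA, fewer cells of a type and less RNA per cell cannot be told apart. All levels are CPM scaled with TMM factors, and so they are relative to the other transcripts of the same library. Fold changes are given as log2 values with their standard error (SE), and a gene is said to have risen or fallen where edgeR's quasi-likelihood test gave a p under 0.05 after Benjamini-Hochberg adjustment over all genes tested. All 88 genes were tested in every comparison.

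Per kilobase of the principal transcript, the most abundant of the genes named here was Atp5b, the catalytic beta subunit of complex V, at 663 CPM per kb. Cox4i1, a regulatory subunit of complex IV, reached 514 CPM per kb, and Cox6a1 and Cox8a of the same complex 451 and 434. Next came Atp5a1 of complex V at 428, Ndufa4 at 416 and Atp5g3, a source of the membrane-embedded c subunit of complex V, at 361. The assembly factor Ndufaf4 stood at 7.32 CPM per kb and Cox6b2, an isoform best known from testis, at 6.22. Of the named tissue isoforms, Cox7a1 (0.729 CPM), Ndufa4l2 (0.332 CPM) and Cox4i2 (0.0575 CPM) lay under the 1 CPM minimum, as did Cox7b2 (0.0792 CPM) and Cox8b (0.00846 CPM), while Cox8c and another row named Atp5o had no reads. The genes just above it were Atp5l at 3.56 CPM, Cox6b2 at 3.64 CPM and Ndufb4 at 7.28 CPM. Complex V carried the highest summed level of the 6 groups of genes, 3993 CPM on average over all libraries, against 2760 for complex I subunits, 1941 for complex IV, 1241 for complex III, 663 for complex II and 168 for the Ndufaf assembly factors.

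**Figure D1:**
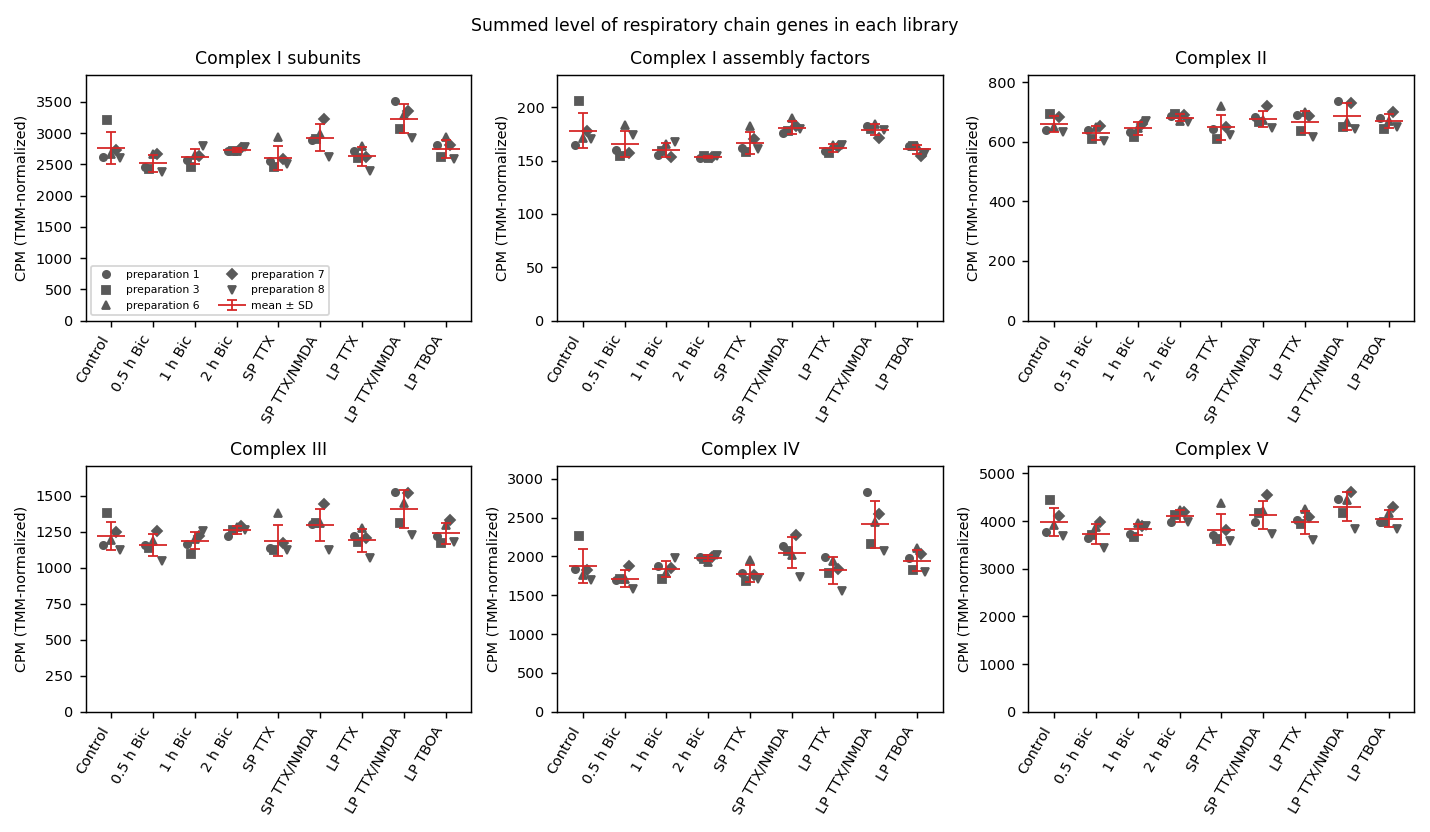
Summed TMM-normalized CPM (y axis) of the genes of each complex in every library, by group (x axis); each point is 1 library, its shape marks the culture preparation, and red bars give the mean ± SD of 5 libraries. Complex IV lay between 2074 and 2827 CPM in LP TTX/NMDA and between 1555 and 1992 CPM in LP TTX, without overlap, whereas complex II overlapped between them (643 to 737 and 614 to 699 CPM).

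Whether firing itself changed these genes was asked by comparing each Bic time with the control. After 0.5 h of Bic, none of the 88 genes passed edgeR's test in either direction, with a median log2 fold change of -0.14 and 15 genes at an unadjusted p under 0.05 (DESeq2 also called 0). After 1 h, edgeR's test again called none, with a median of -0.08, 14 genes at an unadjusted p under 0.05 and 1 gene lower by DESeq2. Among all genes of at least 1 CPM, edgeR called 0.573% higher and 0.0% lower at 0.5 h, and 1.98% higher and 0.419% lower at 1 h. The control library of preparation 3 was the highest of its group, with a summed level of 12192 CPM over the 88 genes against 9921 to 10765 CPM in the other 4, and without preparation 3 the medians were -0.05 at 0.5 h and -0.00092 at 1 h. With preparation as a block and a filter on low counts, 2 genes fell at 1 h, the complex I assembly factors Ndufaf4 (edgeR adjusted p = 0.00831) and Ndufaf1 (edgeR adjusted p = 0.0326), beside 3.15% higher and 1.26% lower among all genes of at least 1 CPM. With the filter alone, 0 passed.

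After 2 h of Bic, 2 of the 88 genes rose and 2 fell by edgeR's test, beside 8.18% higher and 10.4% lower among all genes of at least 1 CPM. The median log2 fold change of the 88 genes was -0.01, and 0.04 without preparation 3. Both that fell encode assembly factors of complex I, proteins that help to build the complex but are not part of the finished enzyme.

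Ndufaf4 stood at 24.2, 33.2, 33.1, 31.6 and 31.1 CPM in the control libraries of preparations 1, 3, 6, 7 and 8, and at 19.3, 20.9, 19.9, 20.96 and 22.3 CPM after 2 h of Bic. All 5 Bic libraries lay under all 5 controls, including the low control of preparation 1. Its log2 fold change was -0.59 ± 0.09 (SE, n = 5 and 5, edgeR adjusted p = 7.58e-06).

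Ndufaf1 followed the same course, from 19.4, 23.9, 20.3, 21.2 and 20.3 CPM in control to 15.1, 16.7, 15.6, 15.6 and 13.2 CPM. The groups did not overlap here either. The log2 fold change was -0.48 ± 0.09 (SE, n = 5 and 5, edgeR adjusted p = 0.000221). At 0.5 h of Bic both genes still overlapped with the control, Ndufaf4 ranging from 24.3 to 35.8 CPM and Ndufaf1 from 16.7 to 23.3 CPM. The summed level of the 8 Ndufaf genes fell by 13.1% ± 7.0 within preparations (SD, n = 5), and was lower in 5 of 5. This sum includes Ndufaf4 and Ndufaf1, and the other 6 Ndufaf genes did not pass the test.

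Both genes that rose belong to complex V. Atp5g2 is 1 of 3 genes, with Atp5g1 and Atp5g3, that encode the same mature c subunit behind different targeting peptides. It rose from 17.4, 13.1, 14.3, 13.2 and 13.5 CPM in control to 18.4, 18.8, 16.6, 16.6 and 17.5 CPM after 2 h of Bic. It was higher in 5 of 5 preparations, although the control of preparation 1 lay within the Bic range. The log2 fold change was 0.29 ± 0.09 (SE, n = 5 and 5, edgeR adjusted p = 0.0429). Atp5g1 (0.03 ± 0.07) and Atp5g3 (-0.04 ± 0.08) did not pass the test at 2 h. Since Atp5g2 made up 3.96% ± 0.70 (SD, n = 5) of the 3 genes' summed CPM in control and 4.82% ± 0.36 after 2 h of Bic, their sum was 365 ± 33 CPM in control and 366 ± 14 CPM after 2 h. The 3 genes are close copies, and reads that map to more than 1 place were not counted.

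Atp5d, the delta subunit of the central stalk of complex V, stood at 193, 224, 187, 216 and 176 CPM in control and at 234, 236, 249.9, 249.8 and 219.9 CPM after 2 h of Bic. It was higher in 5 of 5 preparations, with the control of preparation 3 inside the Bic range. Its log2 fold change was 0.25 ± 0.08 (SE, n = 5 and 5, edgeR adjusted p = 0.0412). Each of the rises passed in only 1 of the 5 fits that leave out 1 preparation, Atp5d without preparation 3 and Atp5g2 without preparation 1. Both were lost in a single fit over all 45 libraries and with total-count scaling (0 genes higher in each, with 5 genes lower under total-count scaling), whereas 2 genes fell whichever preparation was left out.

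The regions upstream of the 3 c subunit genes and both assembly factors are shown for reference. Differences among these genes at 2 h were not tested, nor was any link between these bases and their levels. Each run holds the 130 bases from position -130 to -1 before the transcription start in RefSeq's mouse annotation (GRCm38.p6), 5′ to 3′ on the gene's strand, with capitals marking matches to the searched motifs.
Atp5g1 (chr11:96075632-96075761, minus strand): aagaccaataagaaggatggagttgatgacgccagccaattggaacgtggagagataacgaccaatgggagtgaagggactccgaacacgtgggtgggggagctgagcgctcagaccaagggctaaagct
Atp5g2 (chr15:102671048-102671177, minus strand): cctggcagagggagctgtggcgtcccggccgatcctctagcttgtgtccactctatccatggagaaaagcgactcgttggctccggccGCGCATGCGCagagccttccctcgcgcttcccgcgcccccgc
Atp5g3 (chr2:73911327-73911456, minus strand): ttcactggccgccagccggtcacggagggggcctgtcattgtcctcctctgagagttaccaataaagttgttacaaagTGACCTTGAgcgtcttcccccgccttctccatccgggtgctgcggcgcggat
Ndufaf4 (chr4:24897953-24898082, plus strand): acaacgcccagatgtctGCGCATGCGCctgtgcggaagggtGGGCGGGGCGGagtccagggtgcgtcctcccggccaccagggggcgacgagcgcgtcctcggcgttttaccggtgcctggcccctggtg
Ndufaf1 (chr2:119662835-119662964, minus strand): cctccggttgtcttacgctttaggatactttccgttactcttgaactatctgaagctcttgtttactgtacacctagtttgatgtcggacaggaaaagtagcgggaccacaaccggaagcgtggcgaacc
The capitals in Atp5g2, starting at -42, and the first in Ndufaf4, starting at -113, are the palindromic motif of NRF1, a transcription factor of many genes for mitochondrial proteins. Those in Atp5g3, starting at -52, are TGACCTTGA, the reverse complement of the motif TCAAGGTCA of the oestrogen-related receptors (ERR). Later in Ndufaf4 stand overlapping copies of GGGCGG, the core of SP1 and KLF sites. No searched motif lies within the printed bases of Atp5g1 and Ndufaf1.

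RefSeq promoter windows, from 250 bases before to 50 bases after the start, were at hand for 73 of the 88 genes and for 17419 other protein-coding genes, and all were searched on both strands. The NRF1 motif occurred in 7 of the 73 (9.59%) and in 1.44% of the other genes, TCAAGGTCA in 2 (2.74%) and in 0.367%, and GGGCGG in 34 (46.6%) and in 49.2%. AAGATGGC, the motif of YY1, occurred in 11 (15.1%) and in 3.52%, mostly just after the start. CCGGAAGT, bound by GABPA and other ETS factors, occurred in 5 (6.85%) and in 5.68%. TGACGTCA, the CREB motif of many activity-regulated genes, occurred in 4 (5.48%) and in 2.53%, and TATAAA in 5 (6.85%) and in 14.8%. These are matches of letters only, and no binding was measured. Of the 7 genes with the NRF1 motif, 3 rose in LP TTX/NMDA, the comparison described next, and of the 11 with AAGATGGC, 9 did. So did 1 of 2 with TCAAGGTCA, 22 of 34 with GGGCGG and 4 of 5 with CCGGAAGT. For TGACGTCA it was 2 of 4 and for TATAAA 5 of 5. Among all 88 genes 65 rose there, and differences between motifs were not tested.

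**Figure D2:**
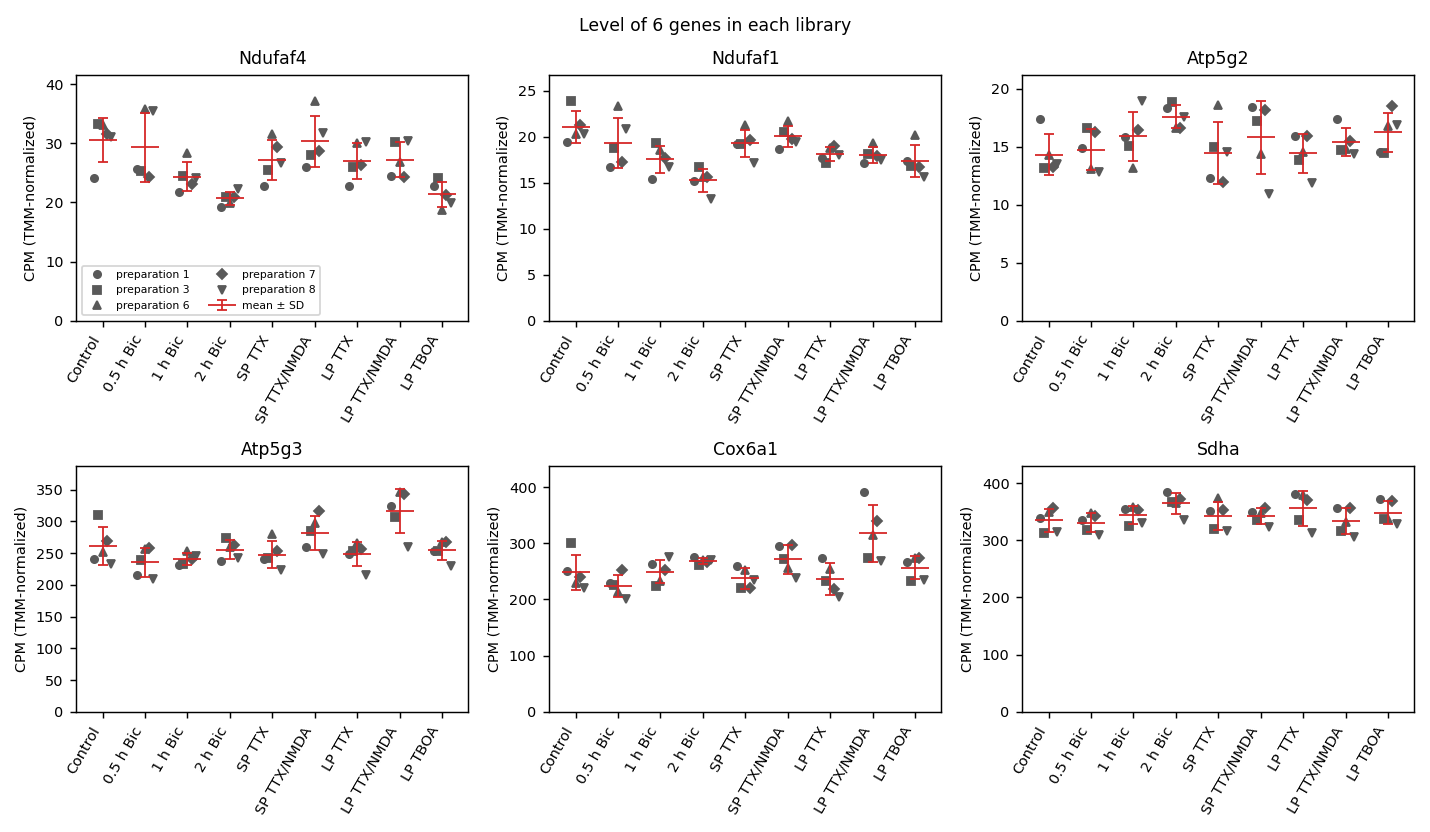
TMM-normalized CPM (y axis) of Ndufaf4, Ndufaf1, Atp5g2, Atp5g3, Cox6a1 and Sdha in each library by group (x axis), with the mean ± SD of 5 libraries in red and point shapes marking preparations. The group means of Ndufaf4 (20.7 CPM) and Ndufaf1 (15.2 CPM) are lowest at 2 h of Bic, those of Atp5g3 (316 CPM) and Cox6a1 (318 CPM) are highest in LP TTX/NMDA, and Sdha stays between 305 and 384 CPM throughout.

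The active effect of NMDA, beyond that of stopping the firing, is given by TTX/NMDA against TTX alone. In the long protocol, 65 of the 88 genes rose by edgeR's test and 0 fell, beside 20% higher and 26.9% lower among all genes of at least 1 CPM. The median log2 fold change was 0.34, against -0.01 over all genes of at least 1 CPM, and the values ranged from -0.12 to 0.84. In 41 of the 88 genes all 5 LP TTX/NMDA libraries lay above all 5 LP TTX libraries, and in 0 below, where 12% of all genes of at least 1 CPM did so upward and 21% downward.

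The summed level of the 88 genes was 10791, 10283, 11128, 10600 and 9396 CPM in LP TTX and 13239, 11555, 12468, 12918 and 10868 CPM in LP TTX/NMDA (preparations 1, 3, 6, 7 and 8). It was higher in 5 of 5 preparations, with LP TTX/NMDA of preparation 8 inside the LP TTX range. The rise within preparations averaged 16.9% ± 5.1 (SD, n = 5). With total-count scaling, the median over all genes of at least 1 CPM was itself 0.17, the median of the 88 genes 0.52, and 82 genes rose.

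The values differed in size from complex to complex. Complex IV rose with all 13 of its genes, and its summed level went from 1992, 1783, 1936, 1836 and 1555 CPM to 2827, 2163, 2447, 2545 and 2074 CPM, without overlap between the groups. Of the 37 complex I subunits 31 rose, their sum going from 2720, 2601, 2797, 2624 and 2402 CPM to 3516, 3074, 3288, 3354 and 2920 CPM, again without overlap. The mean rise within preparations was 32.3% ± 8.5 for complex IV and 22.9% ± 5.4 for complex I (SD, n = 5). Complex III rose in 6 of 9 genes and by 18.02% ± 6.65 in sum, complex V in 11 of 17 genes and by 8.19% ± 3.55, the Ndufaf factors in 3 of 8 and by 10.7% ± 4.1, and complex II in 1 of 4 and by 3.03% ± 4.72, with 4 of 5 preparations higher. Differences between complexes were not tested.

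**Figure D3:**
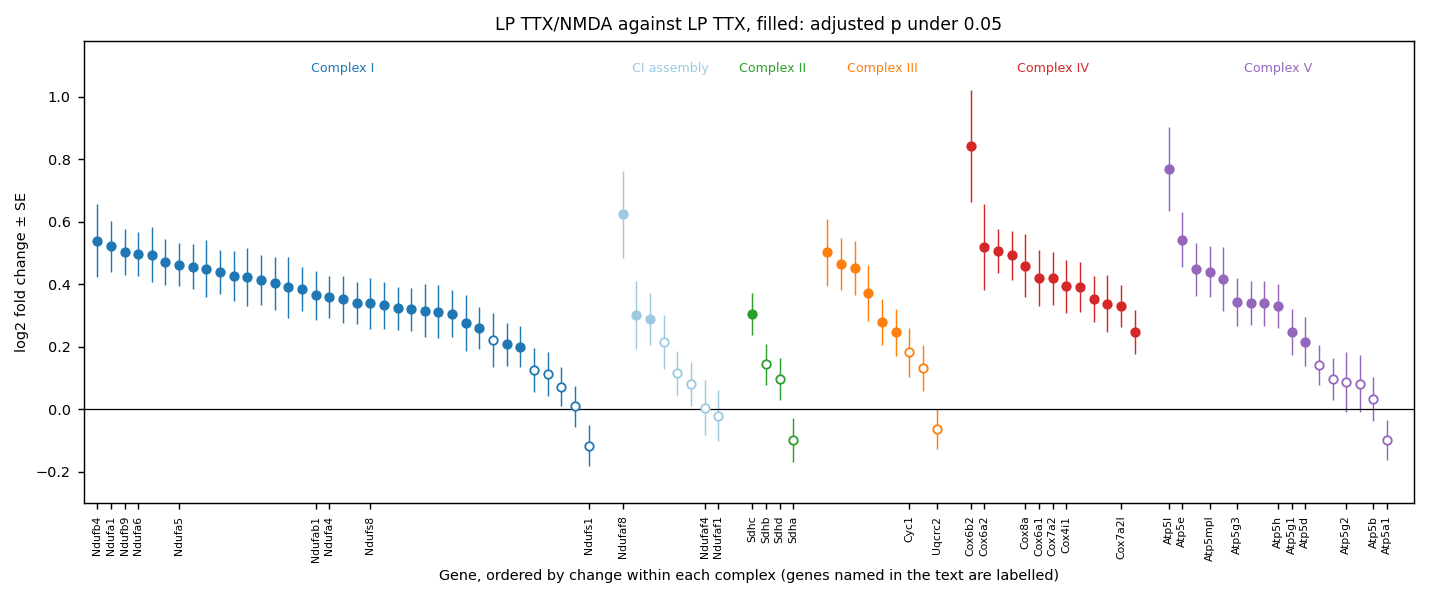
Log2 fold change ± SE (y axis) of each of the 88 genes in LP TTX/NMDA against LP TTX, ordered within each complex (x axis, genes named in the text labelled); filled points passed edgeR's test at an adjusted p under 0.05 and open points did not. All 13 complex IV genes are filled, and the points below 0 are open.

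In complex IV, Cox6a1 stood at 274, 232, 254, 219 and 204 CPM in LP TTX and at 391, 274, 315, 340.4 and 269 CPM in LP TTX/NMDA. It was higher in 5 of 5 preparations, and the groups overlapped through the high LP TTX library of preparation 1. The log2 fold change was 0.42 ± 0.09 (SE, n = 5 and 5, edgeR adjusted p = 0.000654). Cox6a2, its muscle isoform, rose by 0.52 ± 0.14 from a mean of 8.61 CPM, and Cox4i1 by 0.39 ± 0.08. Cox8a (0.46 ± 0.10) and Cox7a2 (0.42 ± 0.09), small membrane subunits, and Cox7a2l (0.33 ± 0.07), which takes part in supercomplexes of III and IV, rose too, with edgeR adjusted p values from 0.000354 to 0.00482 for these 6 genes.

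Cox6b2 had the largest log2 fold change of the 88 genes. It was at 3.13, 4.39, 2.24, 3.67 and 2.38 CPM in LP TTX and at 6.84, 6.06, 4.25, 7.64 and 4.07 CPM in LP TTX/NMDA. All 5 preparations were higher, and the lowest LP TTX/NMDA libraries, of preparations 6 and 8, lay within the LP TTX range. The log2 fold change was 0.84 ± 0.18 (SE, n = 5 and 5, edgeR adjusted p = 0.000655).

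In complex I, Ndufa6, an accessory subunit, was at 46.9, 50.0, 44.4, 42.1 and 43.4 CPM in LP TTX and at 72.7, 63.4, 62.3, 63.0 and 60.2 CPM in LP TTX/NMDA. The groups were well apart, with preparation 1 the highest of LP TTX/NMDA. Its log2 fold change was 0.50 ± 0.07 (SE, n = 5 and 5, edgeR adjusted p = 3.18e-06). Ndufb4 (0.54 ± 0.12), Ndufa1 (0.52 ± 0.08), Ndufb9 (0.50 ± 0.07) and Ndufa5 (0.46 ± 0.07), accessory subunits likewise, rose, as did Ndufa4 (0.36 ± 0.07), Ndufab1 (0.36 ± 0.08), the mitochondrial acyl carrier protein, and the core subunit Ndufs8 (0.34 ± 0.08), an iron-sulphur protein.

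Ndufs1, the largest subunit of complex I, named here after its value was seen, had a log2 fold change of -0.12 ± 0.07 and was lower in 5 of 5 preparations without passing edgeR's test (adjusted p = 0.222). Among the assembly factors, Ndufaf8 rose by 0.62 ± 0.14 (edgeR adjusted p = 0.00109), while Ndufaf4 (0.00 ± 0.09) and Ndufaf1 (-0.02 ± 0.08) did not pass the test.

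In complex II, the catalytic flavoprotein subunit Sdha stood at 380, 336, 379.5, 370.4 and 312 CPM in LP TTX and at 357, 317, 332, 356 and 305 CPM in LP TTX/NMDA. It was lower in 5 of 5 preparations, by less than the spread between preparations, with a log2 fold change of -0.10 ± 0.07 (SE, n = 5 and 5, edgeR adjusted p = 0.361). With total-count scaling the value was 0.08. The membrane anchor Sdhc rose by 0.31 ± 0.07 (edgeR adjusted p = 0.000984), and the iron-sulphur subunit Sdhb (0.14 ± 0.07) and the other anchor, Sdhd (0.10 ± 0.07), did not pass the test. With both the block by preparation and the filter on low counts, Sdhb and Sdhd passed as well (edgeR adjusted p = 0.00489 and 0.0248), and Sdhb passed with the filter alone (edgeR adjusted p = 0.0303).

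In complex III, Cyc1, the cytochrome that passes electrons to cytochrome c, had a log2 fold change of 0.18 ± 0.08 (edgeR adjusted p = 0.0954), which passed with block and filter together (edgeR adjusted p = 0.00165) and without preparation 8 (edgeR adjusted p = 0.0315). Uqcrc2, a core protein that carries no redox centre, had -0.06 ± 0.06 (edgeR adjusted p = 0.502), and 0.11 with total-count scaling.

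In complex V, Atp5l, a small membrane subunit, was at 2.53, 3.52, 2.69, 3.24 and 2.81 CPM in LP TTX and at 5.13, 5.43, 4.73, 4.78 and 5.51 CPM in LP TTX/NMDA. The groups were well apart. The log2 fold change was 0.77 ± 0.14 (SE, n = 5 and 5, edgeR adjusted p = 6.1e-05). Reads that map to several places were not counted, so its level is uncertain. Atp5e, the smallest subunit of the central stalk, rose by 0.54 ± 0.09 (edgeR adjusted p = 1.92e-05), and Atp5mpl, a small proteolipid of the membrane part, by 0.44 ± 0.08 (edgeR adjusted p = 0.000127). Atp5h, of the peripheral stalk, rose by 0.33 ± 0.07 and Atp5d by 0.22 ± 0.08.

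The subunits that bind the nucleotides did not pass the test. Atp5b stood at 1289, 1271, 1393, 1333 and 1147 CPM in LP TTX and at 1334, 1303, 1383, 1429 and 1163 CPM in LP TTX/NMDA. The groups overlapped almost wholly, with a log2 fold change of 0.03 ± 0.07 (SE, n = 5 and 5, edgeR adjusted p = 0.777). Atp5a1, the alpha subunit, named after its value was seen, had -0.10 ± 0.07 (edgeR adjusted p = 0.316) and was lower in 5 of 5 preparations. Atp5b and Atp5a1 together made up 21.6% of the CPM of the 88 genes, and are part of the sum over complex V.

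Of the 3 c subunit genes, Atp5g3 went from 248, 253.5, 266, 257 and 216 CPM in LP TTX to 325, 307, 346, 344 and 260.3 CPM in LP TTX/NMDA. It was higher in 5 of 5 preparations, and preparation 8 of LP TTX/NMDA lay within the LP TTX range. The log2 fold change was 0.34 ± 0.08 (SE, n = 5 and 5, edgeR adjusted p = 0.00101). Atp5g1 rose by 0.25 ± 0.07 (edgeR adjusted p = 0.0114), whereas Atp5g2, the gene that rose after 2 h of Bic, had 0.09 ± 0.10 (edgeR adjusted p = 0.542).

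Genes of short mRNAs made up most of the list. The principal transcripts of the 88 genes had a median length of 891.5 nt, against a median of 3218 nt in 12625 other protein-coding genes of at least 1 CPM. Across the 88 genes, log2 length and log2 fold change in LP TTX/NMDA against LP TTX had a Pearson r of -0.65 and a Spearman rho of -0.69, and across the other genes -0.37 and -0.42. These are descriptions across genes of the same 10 libraries, not across independent samples. Under 1000 nt, 47 of the 48 respiratory chain genes rose, and 62.3% of 551 other genes did, with medians of 0.42 and 0.32. From 1000 to 1999 nt, 15 of 31 rose, and 29.5% of 2320 others, with medians of 0.20 and 0.16. From 2000 to 2999 nt, 0 of 4 rose, these being Ndufa10, Ndufs1, Sdha and Atp5a1, and 19.4% of 2831 others. At 3000 nt or more, 3 of 5 rose, namely Sdhc, Ndufab1 and Atp5g1, against 13.2% of 6923 others. Where a gene had several principal transcripts of the same rank, the longest was taken. Which of them these cells use was not measured, so the lengths in this class are uncertain. The part of transcript length in the rise was not tested.

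**Figure D4:**
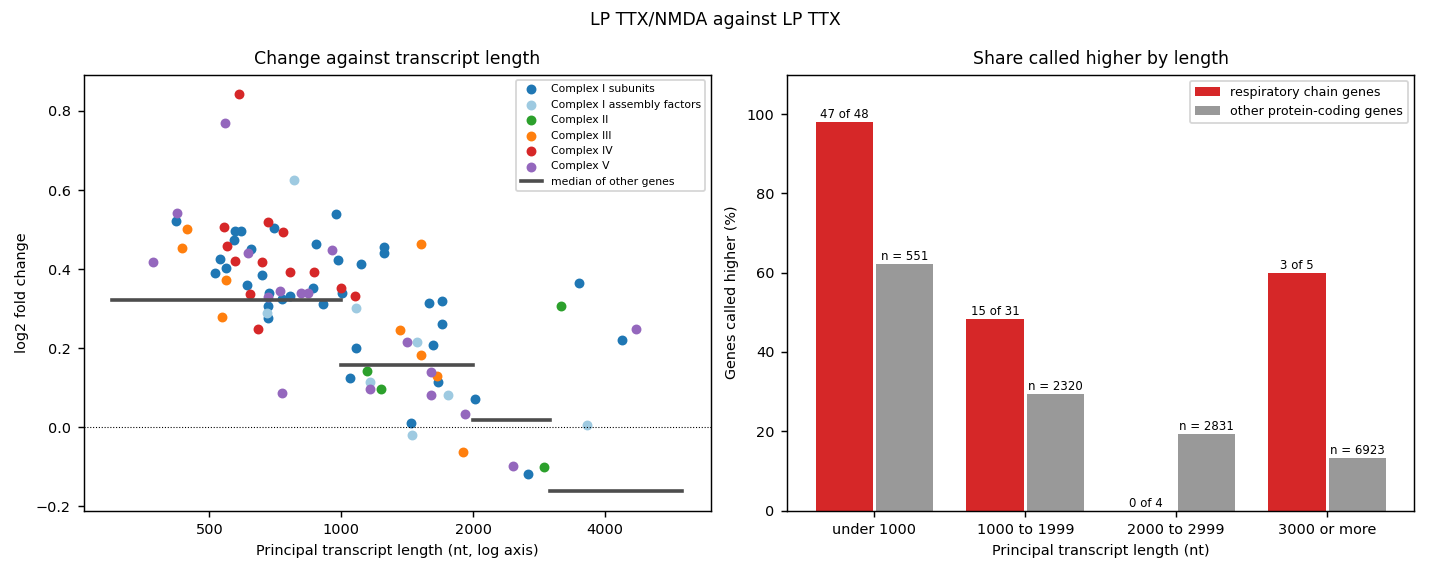
Left, log2 fold change in LP TTX/NMDA against LP TTX (y axis) by principal transcript length in nt on a log axis (x axis) for each respiratory chain gene, coloured by complex, with bars for the median of other protein-coding genes in each length class; right, the share called higher (y axis, percent) by length class (x axis). In the shortest class 47 of 48 respiratory chain genes and 62.3% of 551 other genes were higher.

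Other lists moved in the same libraries. All 7 mitochondrially encoded mRNAs of at least 1 CPM rose (7 of the 13 listed reached this level), with a median log2 fold change of 0.80. The share of all counts taken by the 13 listed was 0.657% ± 0.086 in LP TTX and 1.27% ± 0.15 in LP TTX/NMDA (SD, n = 5 each). Of 81 cytosolic ribosomal protein genes, 69 rose and 0 fell, with a median of 0.40. Of 38 assembly factors that the symbols do not cover, 10 rose and 2 fell, beside 20% higher and 26.9% lower among all genes of at least 1 CPM. Their rises were thus near the share of all genes, and their falls below it. Those that fell were Ttc19 (-0.49 ± 0.08), which acts on complex III, and Lrpprc (-0.30 ± 0.06), which stabilizes mitochondrial mRNAs. Of 16 enzymes of the citric acid cycle and pyruvate dehydrogenase, 2 rose and 2 fell, with a median of -0.02.

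Of 15 regulators of respiratory chain genes, 2 rose, Gabpa (0.32 ± 0.09) and Esrra (0.26 ± 0.08), and 2 fell, the coactivator Pprc1 (-0.32 ± 0.07) and Yy1 (-0.21 ± 0.06). Both counts lie below the 20% higher and 26.9% lower among all genes of at least 1 CPM, as do those of the citric acid cycle enzymes. After 2 h of Bic, 2 of these regulators had fallen, Gabpa by 0.62 ± 0.09 and Tfam, the packaging and transcription factor of mitochondrial DNA, by 0.52 ± 0.08 on the log2 scale. At that time 5 of the 38 other assembly factors fell and 0 rose. Both counts of falls are near the 10.4% lower among all genes of at least 1 CPM, so that neither list stood apart by its count.

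Markers of cell types were counted in LP TTX/NMDA against LP TTX too, where 20% of all genes of at least 1 CPM rose and 26.9% fell. Of 8 astrocyte markers, 6 rose and 1 fell, with a summed level of 1036 to 1588 CPM in LP TTX and 1204 to 2184 CPM in LP TTX/NMDA. Of 8 neuronal markers, 0 rose and 3 fell, Map2, Syn1 and Slc17a7, and their sum went from 6878 to 7681 CPM down to 5930 to 6489 CPM. Of the oligodendrocyte lineage markers 4 of 8 rose (100 to 168 CPM, then 156 to 312 CPM in sum), of fibroblast markers 4 of 4 (65.6 to 142 CPM, then 85.7 to 205 CPM), of microglial markers 3 of 7 (7.01 to 9.83 CPM, then 8.95 to 12.8 CPM) and of endothelial markers 1 of 4 (2.25 to 3.97 CPM, then 2.49 to 5.94 CPM). The astrocyte gene Gjb6 was near 0 throughout, at no more than 0.204 CPM. The part of these cells in the rise of the 88 genes was not tested.

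In the short protocol, the same contrast gave fewer calls. By edgeR's test 3 genes rose and 0 fell, beside 1.73% higher and 7.8% lower among all genes of at least 1 CPM. The median log2 fold change was 0.17, against 0.01 over all genes of at least 1 CPM. Of the 88 values 86 were above 0, and 49 genes had an unadjusted p under 0.05. Neither of these counts was made over all genes. Without preparation 7 the median was 0.11. With preparation as a block and a filter on low counts, 27 genes rose and 0 fell, beside 6.4% and 11.8% of all genes of at least 1 CPM, and 5 rose with the filter alone. Without preparations 3 or 7, 0 genes passed, without preparation 1, 1 did, and without preparations 6 or 8, 12 and 18 did. The SP TTX library of preparation 6 was the highest of its group, at 11547 CPM over the 88 genes against 9652 to 10146 CPM in the other 4.

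The 3 genes were Atp5h, Ndufb9 and Ndufa5. Atp5h stood at 113, 106, 123, 109 and 108 CPM in SP TTX and at 133, 129.7, 136, 143 and 122 CPM in SP TTX/NMDA. It was higher in 5 of 5 preparations, and only SP TTX of preparation 6 reached into the SP TTX/NMDA range. Its log2 fold change was 0.24 ± 0.07 (SE, n = 5 and 5, edgeR adjusted p = 0.0275), with 0.24 ± 0.07 for Ndufb9 (edgeR adjusted p = 0.033) and 0.24 ± 0.07 for Ndufa5 (edgeR adjusted p = 0.0416). Of the 7 mitochondrially encoded mRNAs 3 rose in this comparison (6 with block and filter), and of the marker lists, 1 of 8 neuronal markers rose and 2 fell, and 1 of 8 astrocyte markers fell.

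The difference between the protocols was tested as an interaction. The active effect was larger in LP than in SP for 2 genes and smaller for 0, beside 1.45% and 4.65% of all genes of at least 1 CPM. These were Atp5l, with a difference of 0.82 ± 0.19 in log2 fold change (edgeR adjusted p = 0.0101), and Ndufa6, with 0.35 ± 0.10 (edgeR adjusted p = 0.0413). In SP, Atp5l was at 3.60, 4.29, 3.99, 3.79 and 3.94 CPM with TTX and at 2.73, 4.18, 4.85, 4.15 and 3.35 CPM with TTX/NMDA, 2 of 5 preparations being higher. Over the 88 genes, the median difference was 0.18, against -0.02 over all genes of at least 1 CPM, with 76 of the 88 above 0. With block and filter the counts were 21 larger and 1 smaller, beside 10.7% and 18.2% of all genes of at least 1 CPM, and the smaller value was that of Ndufs1. With the filter alone, 3 were larger. Without preparation 1, 0 genes passed, and without preparation 6, 1 did.

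**Figure D5:**
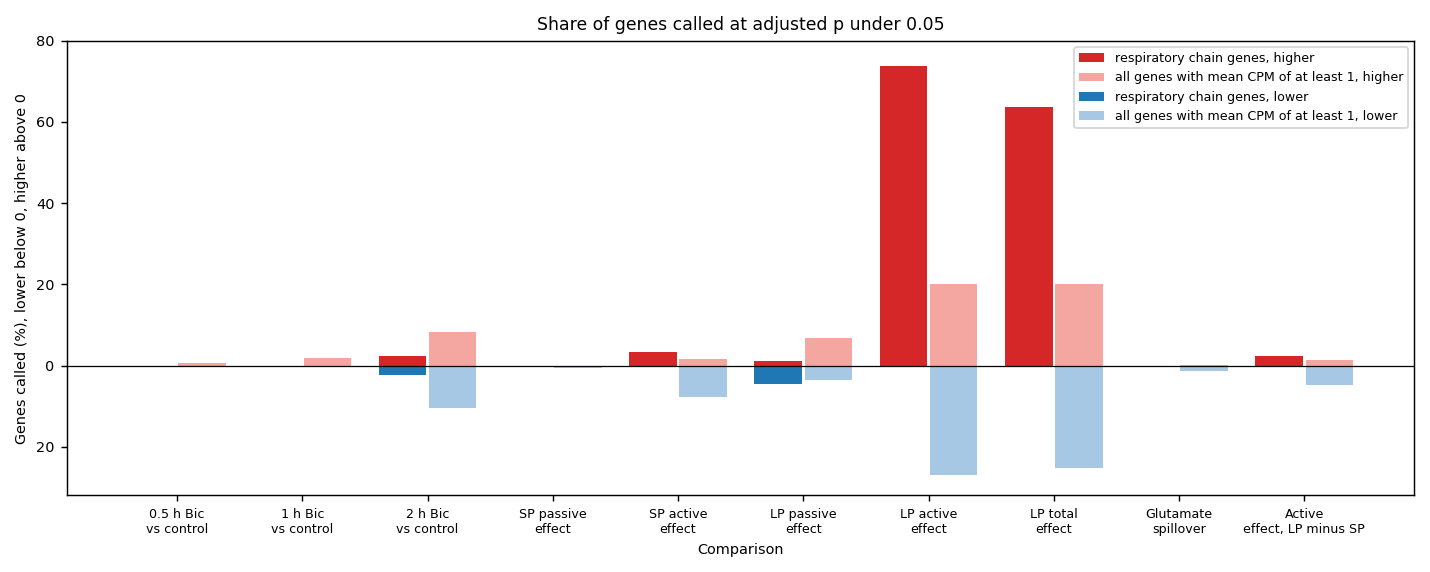
Share of genes called by edgeR's test (y axis, percent; higher above 0, lower below 0) in each comparison (x axis), for the 88 respiratory chain genes in full colour and all genes of at least 1 CPM in pale colour. The counts of respiratory chain genes called higher were 65 in LP TTX/NMDA against LP TTX, 56 in LP TTX/NMDA against 2 h Bic and at most 3 in the other comparisons.

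The passive effect, that of stopping the firing, is given by TTX against Bic of the same total time. In SP, none of the 88 genes passed edgeR's test against 1 h Bic, 0 had an unadjusted p under 0.05, DESeq2 called 0, and the median log2 fold change was -0.01. Among all genes of at least 1 CPM, 0.0294% were higher and 0.515% lower.

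In LP, 1 gene rose and 4 fell against 2 h Bic, beside 6.84% higher and 3.6% lower among all genes of at least 1 CPM. The gene that rose was Ndufaf4, at 22.8, 25.97, 29.995, 26.3 and 30.2 CPM in LP TTX against the 19.3 to 22.3 CPM of 2 h Bic given above. The groups did not overlap, and the log2 fold change was 0.38 ± 0.08 (SE, n = 5 and 5, edgeR adjusted p = 0.00282). Ndufaf1 stood at 17.6, 17.1, 18.7, 18.97 and 18.1 CPM, above the 13.2 to 16.7 CPM of 2 h Bic in all 5 libraries, with 0.24 ± 0.08 (edgeR adjusted p = 0.0924, and 0.0066 with block and filter). These comparisons share the 2 h Bic libraries with those against control, so opposite directions in them are not independent.

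The genes that fell in LP TTX were Ndufs8 by 0.26 ± 0.07 (edgeR adjusted p = 0.0205), Atp5d by 0.21 ± 0.06 (edgeR adjusted p = 0.0398), Cox4i1 by 0.21 ± 0.06 (edgeR adjusted p = 0.047) and Atp5g2 by 0.29 ± 0.09 (edgeR adjusted p = 0.0479) on the log2 scale. Each was lower in 5 of 5 preparations. Atp5g2 was at 15.9, 13.8, 14.5, 15.9 and 11.9 CPM, under the 16.6 to 18.8 CPM of 2 h Bic in every library. With block and filter, 3 genes rose and 25 fell, beside 17.6% higher and 18.2% lower among all genes of at least 1 CPM, and with the filter alone 2 rose and 6 fell. Under total-count scaling 1 was higher and 2 lower, DESeq2 called 14 lower, and the single fit over 45 libraries 0. Leaving out 1 preparation gave between 0 genes lower (without preparation 3) and 8 (without preparation 1), with 2 without preparation 6 and 1 without 7 or 8.

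LP TTX/NMDA against 2 h Bic, the total effect of the intervention, gave 56 genes higher and 0 lower, beside 20.2% and 25.1% of all genes of at least 1 CPM, with a median log2 fold change of 0.26. It shares LP TTX/NMDA with the active effect and 2 h Bic with the passive effect. By complex, 27 of 37 complex I subunits, 2 of 8 Ndufaf factors, 1 of 4 complex II, 6 of 9 complex III, 10 of 13 complex IV and 10 of 17 complex V genes rose. Ndufb4 had the largest value, 0.73 ± 0.11, followed by Atp5l at 0.65 ± 0.14 and Cox6b2 at 0.63 ± 0.16, and Ndufab1 (0.54 ± 0.08) and Atp5mpl (0.52 ± 0.07) rose as well. Genes that had fallen in LP TTX did not pass the test here in 4 of 4 cases, with Cox4i1 at 0.19 ± 0.08, Ndufs8 at 0.08 ± 0.08, Atp5d at 0.00 ± 0.08 and Atp5g2 at -0.20 ± 0.09. With block and filter, 69 genes rose, Cox4i1 among them (edgeR adjusted p = 0.0287), and 3 fell, Sdha (edgeR adjusted p = 0.0489), Atp5a1 (edgeR adjusted p = 0.0247) and Atp5g2 (edgeR adjusted p = 0.029), beside 31.2% and 29.1% of all genes of at least 1 CPM. With total-count scaling, 81 genes rose and the median over all genes of at least 1 CPM was itself 0.20.

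Glutamate spillover, LP TBOA against 2 h Bic, gave no call among the 88 genes by edgeR's test, with or without block and filter, and 0 by DESeq2. Only 2 genes had an unadjusted p under 0.05, and the median log2 fold change was 0.02, beside 0.0956% higher and 1.27% lower among all genes of at least 1 CPM. The summed level was 10828, 10401, 11336, 11318 and 10197 CPM with TBOA and 10733, 10921, 10969, 11089 and 10837 CPM at 2 h of Bic. The TBOA libraries lay on both sides of the Bic libraries, 3 of 5 preparations being higher. The Ndufaf sum was higher in 5 of 5, by 4.56% ± 3.08 within preparations (SD, n = 5). Its groups were only just apart, with 154.804 CPM as the lowest TBOA and 154.798 CPM as the highest Bic library. Sums of the other complexes were higher in 1 to 3 of 5 preparations. Ndufaf4 with TBOA was at 22.7, 24.1, 18.8, 21.3 and 19.97 CPM, overlapping with 2 h Bic.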

How the data were processed

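Poly(A) RNA was sequenced in 45 libraries, 5 in each of 9 groups, from 5 culture preparations. Per the submitters' processing notes and methods, single reads (75 cycles, directional NEBNext libraries) were converted with bcl2fastq 2.20.0.422, aligned to GRCm38 with STAR 2.5.4b and counted per Ensembl 94 gene by strand with featureCounts 1.6.5, leaving out reads that map to several places or genes. The authors deposited these raw counts without normalization, as integers per gene and library, and tested them with DESeq2. Every column of counts was matched to a sample, and no pair of libraries held identical counts.

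Symbols and gene types came from GENCODE M21, transcript lengths from its principal transcripts and promoters from RefSeq. Counts of all genes with at least 1 read were scaled with TMM factors and tested in the groups compared with edgeR 4.0.16 in R 4.3.3 (limma 3.58.1, quasi-likelihood test, Benjamini-Hochberg adjusted p under 0.05), and drawn up with Python 3.11.15, pandas 2.3.3, scipy 1.17.1 and matplotlib 3.10.9. Alternatives were DESeq2 1.42.0, 3 other scalings (DESeq2 size factors, upper quartile, total counts), edgeR's filterByExpr, preparation as a block together with filterByExpr, 1 fit over all libraries, and leaving out each preparation. Replicate numbers name the culture preparation that groups share per the labels, so the block is a pairing by the labels. Deviations of same-numbered libraries from their group means correlated (mean r from 0.376 to 0.571 over the comparisons). Single preparations ranged from -0.235 in glutamate spillover to 0.751 in the LP active effect. The main test leaves the block out. With block and filter together, every comparison gave as many or more calls among the 88 genes. The fit was tested on simulated data, where false calls took a larger share of the calls than the threshold sets, so that calls near it are the least certain.

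The respiratory chain genes, the other gene lists and the comparisons were chosen with earlier results of these data known. Genes named individually were the 6 called genes with the largest rise in the active LP effect, up to 3 called genes per direction in the other comparisons, the most abundant gene of each complex, the complex II genes, Cyc1 and paralogous isoforms, beside those said to be chosen after their values were seen. The lists were mitochondrially encoded mRNAs, ribosomal proteins, other assembly factors, regulators, citric acid cycle enzymes and cell type markers. Rows of 12 pseudogenes with matching symbols were left out, and close copies such as Atp5g1 to Atp5g3 remain uncertain. Depth ranged from 11316580 to 81129276 counted reads, so every respiratory chain gene was well above single reads.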

Additional observations from a re-analysis of the deposited data

Results flagged for a closer look

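Libraries that stood apart from the other 4 of their group were looked for in 360 sets of 5 values, of which 23 passed Dixon's test, where chance gives about 1 in 20. The SP TTX library of preparation 6 was highest for the sum over all respiratory chain genes (11547 CPM, others 9652 to 10146 CPM), complex I (2939 CPM), complex III (1379 CPM), complex V (4377 CPM), Atp5g1 (101 CPM) and Cyc1 (195 CPM). The control of preparation 3 was highest for complex I (3216 CPM, others 2598 to 2733 CPM), complex IV (2262 CPM, others 1702 to 1839 CPM), Atp5e (94.2 CPM), Atp5h (166 CPM), Ndufa1 (57.6 CPM), Ndufa4 (288 CPM) and Ndufb9 (96.6 CPM).

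The remaining libraries stood apart for single genes. In control, preparation 1 was highest for Atp5g2 (17.4 CPM) and lowest for Ndufaf4 (24.2 CPM), and preparation 7 was lowest for Cox6a2 (6.42 CPM). In the Bic groups, preparation 6 was highest for Atp5l at 0.5 h (5.15 CPM) and lowest for Atp5mpl at 2 h (56.7 CPM). In SP TTX/NMDA, preparation 8 was lowest for Cox7a2 (103 CPM) and preparation 7 highest for Sdhb (143 CPM). In LP, preparation 1 was highest for Ndufa6 in LP TTX/NMDA (72.7 CPM) and for Ndufaf8 in LP TTX (7.73 CPM), and preparation 6 for Sdhc in LP TBOA (102 CPM).

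The active effect differed between LP and SP by the test of the difference for Atp5l (0.82 ± 0.19 on the log2 scale) and Ndufa6 (0.35 ± 0.10).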

How the results depend on the processing

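In the active LP effect, between 57 and 82 respiratory chain genes were higher and 0 lower over all alternatives (60 to 66 when 1 preparation was left out), and in the LP total effect 44 to 61 were higher without any 1 preparation. Values that turned sign were those of Atp5b under upper quartile scaling (-0.0199) and, under total-count scaling, Sdha (0.0777) and Uqcrc2 (0.11). With preparation as a replicate block and filterByExpr together, the number higher was 27 in the SP active effect, 3 in the LP passive effect and 21 in the difference LP minus SP, and the number lower was 2 after 1 h of Bic, 25 in the LP passive effect, 3 in the LP total effect and 1 in LP minus SP. Under total-count scaling the number higher was 0 after 2 h of Bic, 30 in the SP active effect and 12 in LP minus SP, and the number lower 1 after 1 h of Bic, 5 after 2 h and 2 in the LP passive effect. Under upper quartile scaling, 1 was lower after 1 h of Bic, 1 higher in the SP active effect, 3 lower in the LP total effect and 1 higher in LP minus SP. DESeq2 called 1 lower after 1 h of Bic, 4 higher after 2 h, 6 higher in the SP active effect, 2 higher and 14 lower in the LP passive effect, 2 lower in the LP total effect and 5 higher in LP minus SP. With filterByExpr alone, 5 were higher in the SP active and 2 in the LP passive effect. In the fit over 45 libraries, 0 were higher after 2 h of Bic and 0 lower in the LP passive effect. Leaving out 1 preparation gave 0 to 2 higher after 2 h of Bic, 0 to 18 higher in the SP active effect, 0 to 8 lower in the LP passive effect and 0 to 2 higher in LP minus SP. The cause of these changes was not tested. Of the values of single genes, 410 kept direction and call, 45 lost the call, 10 gained it and 3 turned sign. The lowest levels among the genes named, those of Atp5l and Cox6b2, rest on the fewest reads.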

Other observations

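Of the 15 regulators of respiratory chain genes, 2 rose and 1 fell in the LP passive effect, beside 6.84% higher and 3.6% lower among all genes of at least 1 CPM. Tfam (0.33 ± 0.08, edgeR adjusted p = 0.00832) and Gabpa (0.30 ± 0.08, edgeR adjusted p = 0.0184) rose. Esrra fell by 0.24 ± 0.07 on the log2 scale, close to the threshold (edgeR adjusted p = 0.0491). This comparison shares its 2 h Bic libraries with that against control, in which Tfam and Gabpa fell. Among the enzymes of the citric acid cycle, Suclg2 (0.74 ± 0.19), a subunit of succinate-CoA ligase, and Idh2 (0.54 ± 0.12), the mitochondrial NADP-dependent isocitrate dehydrogenase, rose in the active LP effect, and Ogdh (-0.30 ± 0.07) and Pdha1 (-0.20 ± 0.07), subunits of the 2-oxoglutarate and pyruvate dehydrogenase complexes, fell. Of the mitochondrially encoded mRNAs, mt-Nd4, a subunit of complex I, rose by 1.04 ± 0.10 on the log2 scale in the active LP effect, and mt-Nd2 was lower after 2 h of Bic (-0.31 ± 0.09) and higher in the LP passive effect (0.31 ± 0.08). In the latter 2 comparisons mt-Nd2 alone of the 7 passed, whereas with preparation as a block and a filter on low counts 5 of the 7 were lower after 2 h of Bic and 7 of the 7 were higher in the LP passive effect.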
